A study of Capra hircus with 3 samples.

Results

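The genes described here are 10 genes of antigen processing and presentation, B2M, TAP1, TAP2, TAPBP, PSMB8, PSMB9, CD74, CIITA, NLRC5 and ERAP2. They were taken from the deposited values by their goat NCBI gene IDs, and all 10 were found, each at 1 locus, among 13023 protein-coding genes and 50041 loci in all. Mammary gland tissue was collected by surgery from 5 Laoshan dairy goats, a Chinese dairy breed, which were healthy, 4 years old and in the third lactation. It was taken in early lactation (day 10 after parturition), peak lactation (day 90) and late lactation (day 210), and the RNA of the 5 goats was mixed into 1 stranded library per stage. The labels name no treatment of any group, and the study's methods give general anaesthesia for the sampling. The values are FPKM, read fragments scaled by the length of the transcript and by library size, so levels can be set side by side between genes. With 1 pooled library per stage, the spread between goats cannot be estimated. Every difference below therefore has no replicate check and no p-value, and the reads behind each FPKM are unknown.

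Cells show peptides of their own proteins to the immune system on MHC class I molecules, each made of a heavy chain and the light chain B2M. The proteasome cuts the proteins, the transporter TAP1/TAP2 carries the peptides into the endoplasmic reticulum, ERAP aminopeptidases trim them, and tapasin (TAPBP) helps to load them. MHC class II molecules show peptides taken up from outside and are made mainly by B cells, macrophages and dendritic cells, with the invariant chain CD74 guarding the empty groove. NLRC5 switches on class I genes and CIITA class II genes, and interferon gamma induces both programmes. In the mammary gland, epithelial cells carry class I molecules, and leukocytes live in the tissue and enter milk.

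The libraries are called E, P and L here after their labels (early, peak and late lactation). The stage of each column rests on the sample descriptions, and a check of them went against the labels. Annotated lncRNA genes were matched by RefSeq accession to the supplementary lists of stage-dependent lncRNAs, and only the directions were compared. For the P and L libraries, 20 of 148 matched genes had the same direction when the columns were read by label, and 128 had it when both columns were exchanged. For the E and L libraries the numbers were 58 and 117 of 135 genes, and for the E and P libraries 36 and 43 of 67 genes. The letters P and L therefore name labels only, and which of both libraries is peak lactation is open to doubt in every result below. In the E, P and L libraries, 12958, 12999 and 12823 protein-coding genes were above 0 FPKM, with medians of 7.05, 7.23 and 6.92 FPKM. Milk protein genes were present in each library, and 7 of them made up 45.2%, 22.5% and 38.7% of the protein-coding FPKM in the same order. LALBA, one of the 7, was listed at 0 in the L library, so a listed 0 can be a failed estimate. None of the 10 antigen presentation genes was listed at 0.

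In 9 of the 10 genes the FPKM was highest in the P library, intermediate in the E library and lowest in the L library. B2M had the opposite order. The order of the 9 was shared by 30.6% of all protein-coding genes, and by 27% of those with at least 1 FPKM in each library. The summed FPKM of the 10 genes was 362, 497 and 261 in the E, P and L libraries. Since the libraries are bulk tissue, fewer cells of a type and less RNA per cell cannot be told apart.

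**Figure D1:**
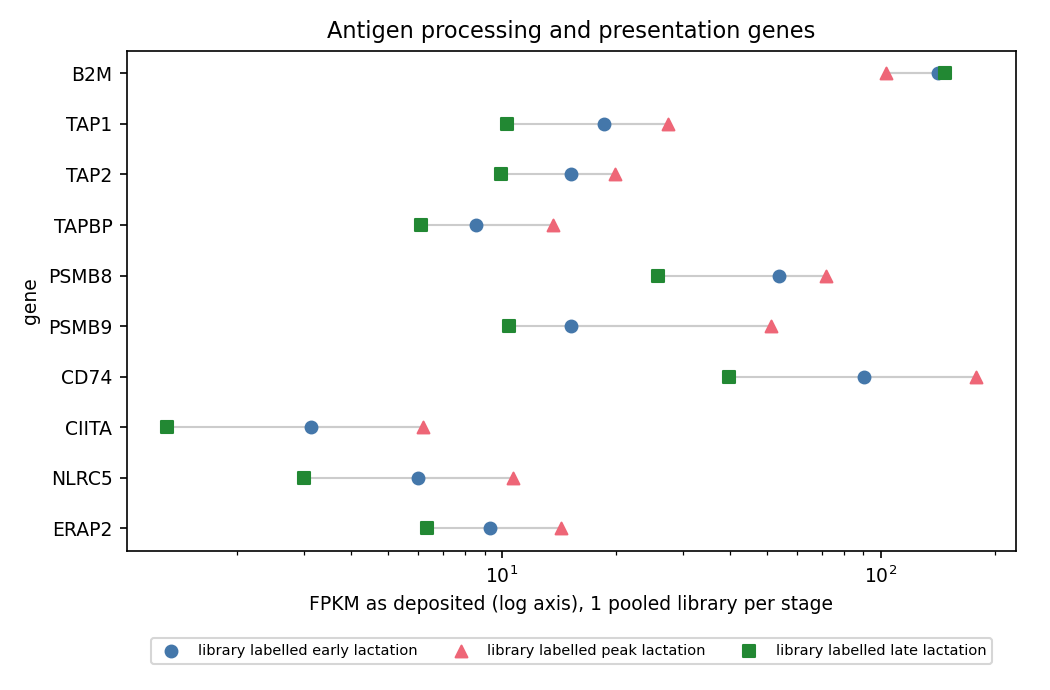
FPKM of the 10 genes on a log axis, with 1 point per gene and library (1 pooled library per stage, no error bars). In 9 genes the P library lies to the right and the L library to the left, while B2M runs the other way, from 103 to 148 FPKM.

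B2M, the class I light chain, was among the most abundant of the 10 genes. Its FPKM was 142 in the E library, 103 in the P library and 148 in the L library. In the E library it stood above 98.3% of the detected protein-coding genes. The highest library exceeded the lowest 1.43-fold, the narrowest range among the 10 genes. The locus lies on scaffold NW_005100768.1 from 8070594 to 8072659, in the coordinates of the deposited loci, which were not checked against the goat genome named in the study's methods.

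TAP1 and TAP2 form the peptide transporter as a pair and were at similar levels. TAP1 had 18.6, 27.4 and 10.3 FPKM in the E, P and L libraries. TAP2 had 15.2, 19.8 and 9.92 FPKM. The quotient of TAP1 to TAP2 was 1.22, 1.38 and 1.04, so the difference between both genes was largest in the P library. TAPBP, the loading factor tapasin, was lower throughout, with 8.54, 13.6 and 6.12 FPKM. From the L to the P library the FPKM of TAP1 and TAPBP differed 2.66-fold and 2.22-fold.

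PSMB8 and PSMB9 are the catalytic subunits that replace PSMB5 and PSMB6 when a cell builds immunoproteasomes. PSMB8 had 53.9 FPKM in the E library, 72.0 FPKM in the P library and 25.8 FPKM in the L library. PSMB9 had 15.2, 51.4 and 10.5 FPKM in the same libraries. PSMB9 thus stood far below PSMB8 in the E library and close to it in the P library. Its ratio of 3.38 between the P and E libraries was the largest of the 10 genes, and 0.914% of the protein-coding genes with at least 1 FPKM in both had a larger one.

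CD74, the invariant chain of class II, had 90.5, 178 and 39.8 FPKM in the E, P and L libraries. In the P library it was the most abundant of the 10 genes and stood above 99.0% of the detected protein-coding genes, and in the L library above 91.9%. The quotient of CD74 to B2M was 0.639 in the E library, 1.73 in the P library and 0.269 in the L library. Of the 3 libraries, CD74 therefore exceeded B2M in the P library only. Its locus lies on scaffold NW_005100721.1 from 19362688 to 19370838.

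The transactivators were the genes of lowest abundance. CIITA, the class II transactivator, had 3.14, 6.19 and 1.31 FPKM in the E, P and L libraries, and NLRC5, the class I transactivator, had 5.99, 10.7 and 3.01 FPKM. Both stayed above 1 FPKM in each library, but at such levels the number of reads may be small and is unknown. CIITA lies on scaffold NW_005100934.1 from 7093022 to 7148292 and NLRC5 on scaffold NW_005100867.1 from 10585090 to 10676649. The quotient of NLRC5 to CIITA ranged from 1.73 to 2.30. CIITA and CD74, its target, had nearly equal ratios of 1.97 between the P and E libraries, and of 0.417 and 0.440 between the L and E libraries.

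ERAP2, an aminopeptidase that trims peptides in the endoplasmic reticulum, had 9.32, 14.3 and 6.33 FPKM. ERAP1, its partner enzyme, had 16.2, 15.3 and 13.3 FPKM and thus varied less. The quotient of ERAP2 to ERAP1 was 0.577, 0.932 and 0.477 in the E, P and L libraries. Both genes lie on scaffold NW_005100725.1, ERAP2 from 10525712 to 10569788 and ERAP1 from 10385157 to 10423285.

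A gene was called different when the FPKM of both libraries were at least 2-fold apart. Between the P and E libraries, 1 of the 10 genes was called, PSMB9, higher in the P library. Among 13020 protein-coding genes above 0 in either library, 10.9% were called higher in the P library, and 6.69% of those with at least 1 FPKM in both. The count of called genes was therefore near the background. The median log2 ratio of the 10 genes was 0.64, against -0.03 over the protein-coding genes that reached 1 FPKM in both libraries. CIITA and CD74, each with a ratio of 1.97, lay just under the threshold. They were also called when ratios were centred on the median of protein-coding genes, which gave 3 genes. Scaling to protein-coding genes without 7 milk protein genes gave 4, with NLRC5 added. Both settings move the ratios of all genes alike. The share of protein-coding genes called under them is not given here, so the counts of 3 and 4 have no background beside them.

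Between the L and E libraries, 3 of the 10 genes were called, all lower in the L library. They were CIITA with a log2 ratio of -1.26, CD74 with -1.18 and PSMB8 with -1.06. With a pseudocount of 1, CIITA had -0.84 and was no longer called. In this direction 6.74% of 13004 protein-coding genes were called, and 2.19% of those that reached 1 FPKM in both libraries. NLRC5 had a log2 ratio of -0.99 and was just not called. The median over the 10 genes was -0.74, against -0.01 over the protein-coding genes, and the ratio of B2M was 1.04.

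Between the L and P libraries, 9 of the 10 genes were called, all lower in the L library. Among protein-coding genes 17.4% of 13015 were called in this direction, and 10.4% of those that reached 1 FPKM in both libraries. PSMB9, CIITA and CD74 differed most, with log2 ratios of -2.30, -2.24 and -2.16, followed by NLRC5 with -1.83. PSMB8 had -1.48, TAP1 -1.41, ERAP2 -1.17 and TAPBP -1.15. TAP2 lay at the 2-fold threshold itself, with 19.8 FPKM against 9.92 FPKM, and was no longer called with a pseudocount of 0.1 or 1. B2M was 1.43-fold higher in the L library and was not called. The median log2 ratio was -1.44 over the 10 genes and 0.03 over the protein-coding genes. The comparisons share libraries, so the third follows from the other two and adds no independent evidence.

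**Figure D2:**
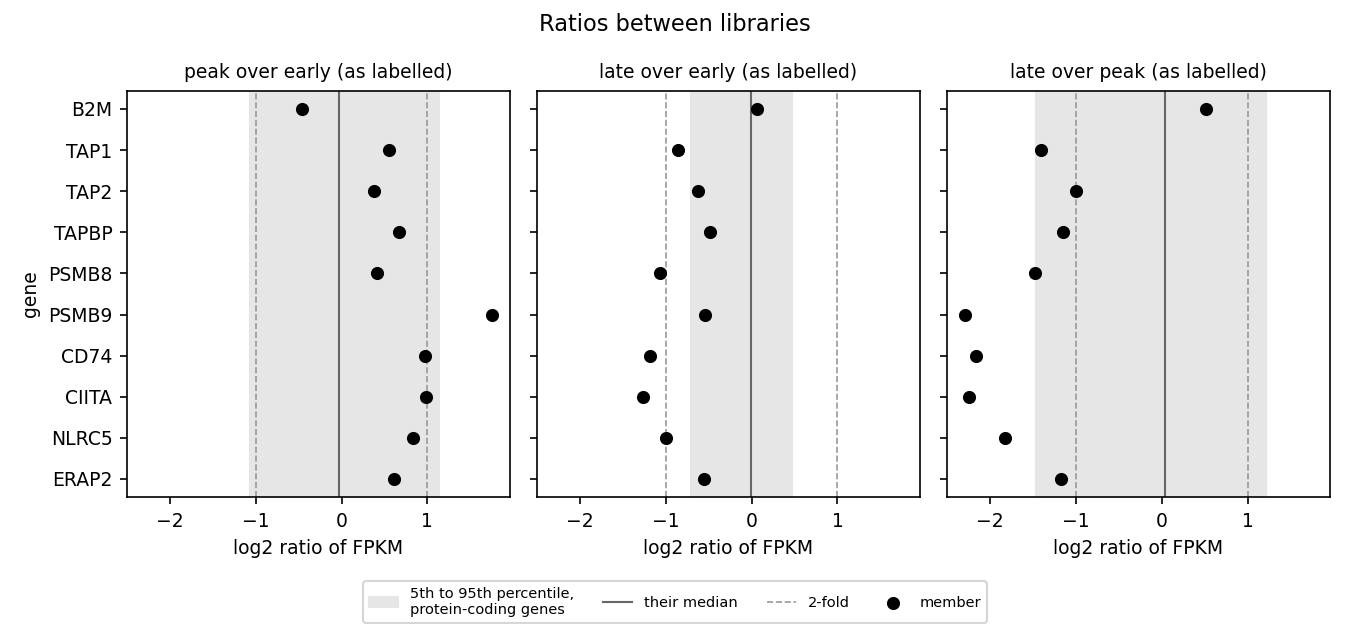
Log2 ratio of FPKM of each of the 10 genes in the 3 comparisons by label, 1 point per gene, with dashed lines at 2-fold and the grey band from the 5th to the 95th percentile of protein-coding genes that reached 1 FPKM in both libraries. Between the L and P libraries, 9 genes lie at or beyond the 2-fold line and B2M lies at 0.52 on the other side of 0.

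Immunoproteasome and constitutive subunits ran in opposite directions. PSMB10, the remaining inducible catalytic subunit, had 14.6, 34.4 and 8.0 FPKM in the E, P and L libraries. Its ratio of 2.36 between the P and E libraries was called. The constitutive counterparts PSMB5, PSMB6 and PSMB7 were each lowest in the P library, and none was called in any comparison. With the libraries scaled to protein-coding genes without milk proteins, PSMB7 was level between the P and E libraries, with a log2 ratio of 0.00, while PSMB5 and PSMB6 kept their direction. PSMB5 had 47.7, 33.1 and 49.3 FPKM, PSMB6 40.8, 26.5 and 45.8 FPKM, and PSMB7 50.9, 41.6 and 59.2 FPKM. The quotient of PSMB9 to PSMB6 was 0.373, 1.94 and 0.228 in the E, P and L libraries. That of PSMB8 to PSMB5 was 1.13, 2.17 and 0.524, and that of PSMB10 to PSMB7 was 0.287, 0.827 and 0.135. From the L library to the P library these quotients differed 8.51-fold, 4.15-fold and 6.12-fold. The activator subunits PSME1 and PSME2, which open the proteasome and are also inducible, had the order of the immunoproteasome subunits over a narrower range. PSME1 had 54.3, 65.0 and 45.0 FPKM and PSME2 22.3, 27.4 and 16.6 FPKM.

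**Figure D3:**
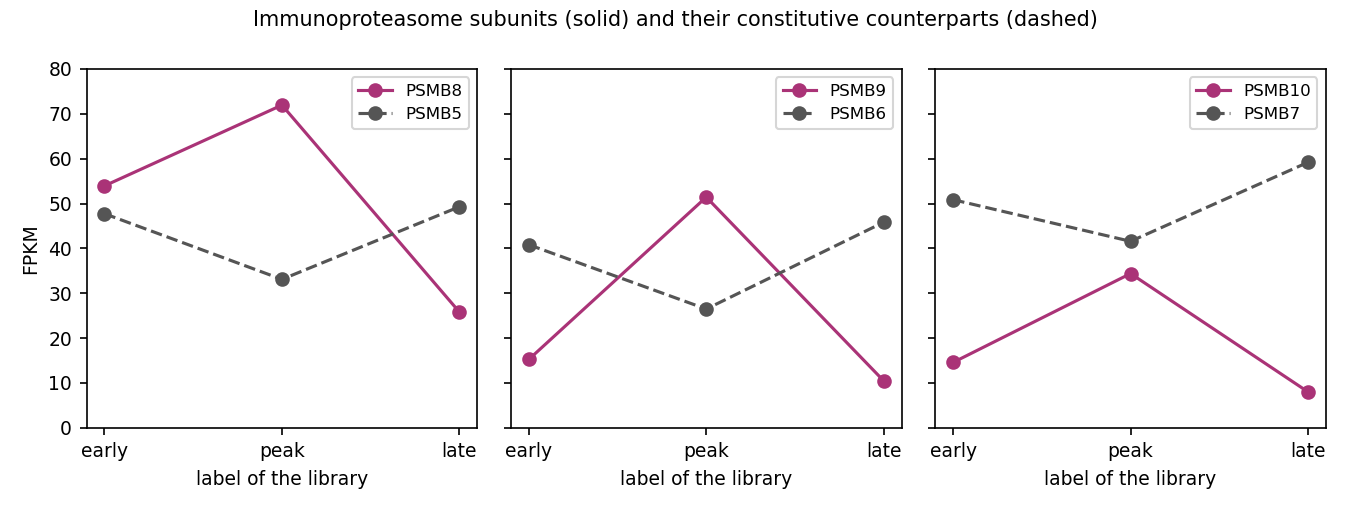
FPKM of each immunoproteasome subunit (solid) and of the constitutive subunit it replaces (dashed) in the E, P and L libraries, 1 pooled library each, on a linear axis from 0. PSMB8 and PSMB9 stand above PSMB5 and PSMB6 in the P library and below them in the L library, while PSMB10 stays below PSMB7.

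In a wider list of antigen presentation genes, 43 genes were found. Between the P and E libraries 2 of the 43 were called higher and 2 lower, between the L and E libraries none higher and 6 lower, and between the L and P libraries 1 higher and 9 lower. Their median log2 ratios were -0.02, -0.24 and -0.24. The called shares were 9.30%, 14.0% and 23.3%, against 17.7%, 8.71% and 25.9% of protein-coding genes in either direction. Against protein-coding genes above 0 in either library, the share was thus below in the first comparison, above in the second and near in the third. With at least 1 FPKM in both libraries, 2 of 43 were called higher between P and E. At this level 4 of 41 were called lower between L and E and 7 of 41 between L and P, and 2, 0 and 1 the other way. Of protein-coding genes at this level, 6.69% were called higher between P and E. The shares called lower were 2.19% between L and E and 10.4% between L and P. The called genes of the wider list differed by role.

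In the interferon gamma route, 8 genes were found. IRF1, a transcription factor that acts on MHC class I, TAP1 and PSMB9 promoters, had 14.2, 39.1 and 6.55 FPKM in the E, P and L libraries. Its ratio of 5.97 between the P and L libraries exceeded that of each of the 10 genes. The receptor chain IFNGR1 had 28.8, 44.8 and 19.5 FPKM. The other receptor chain, IFNGR2, had 99.3, 81.6 and 116 FPKM and JAK1, the kinase that binds IFNGR1, 112, 65.3 and 126 FPKM, the order of B2M, although the small difference of IFNGR2 between the P and E libraries turned under the scaling. JAK2, the kinase that binds IFNGR2, stayed between 29.7 and 30.3 FPKM. SOCS1, an inhibitor of the pathway, was highest in the E library, with 4.14, 2.04 and 1.29 FPKM. Its log2 ratio of -1.02 between the P and E libraries was just past the threshold, and it was -0.72 with the scaling. IFNG itself was not analysed here.

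Of the class II route, 9 proteases and trimming genes were found. Between the L and P libraries 4 of them were called lower and none higher, against 17.4% of protein-coding genes called lower, and 2 of the 4, CTSL and MARCH1, were under 1 FPKM in the L library. CTSS, the cathepsin that cleaves CD74 in antigen-presenting cells, had 52.0, 75.9 and 22.7 FPKM in the E, P and L libraries, and CTSH 23.3, 30.2 and 12.9 FPKM. CTSL had 3.05, 3.45 and 0.852 FPKM and MARCH1, a ubiquitin ligase that removes class II from the surface, 2.05, 3.90 and 0.914 FPKM. CTSB, a broadly active cathepsin, had 74.2, 85.4 and 56.2 FPKM and was not called. An additional class II gene, LOC102189356, is listed in the gene table with the older symbol DRA, the class II alpha chain, and was chosen after its values were seen. It had 170, 372 and 91.9 FPKM, a ratio of 4.04 between the P and L libraries beside 4.47 for CD74.

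Of the transcription factors that bind class I and class II promoters together with NLRC5 and CIITA, 7 were found. None of the 7 (RFX5, RFXAP, RFXANK, NFYA, NFYB, NFYC and CREB1) was called in any comparison. In either direction, 17.7%, 8.71% and 25.9% of protein-coding genes were called between P and E, L and E, and L and P. Beside such shares, no call among 7 genes says little. In 6 of the 7 the FPKM was lower in the L than in the P library. The highest library exceeded the lowest 1.01-fold for RFX5, the narrowest range of the 7, and 1.57-fold for NFYC, the widest. RFX5 had 4.21, 4.19 and 4.24 FPKM in the E, P and L libraries, and CREB1 12.7, 12.1 and 10.0 FPKM. Of the 4 genes of peptide loading in the endoplasmic reticulum that were found (CALR, PDIA3, HSPA5 and TAPBPL), none was called either. With 4 genes this says as little. CALR, a chaperone of the loading complex, had 262, 234 and 298 FPKM, and PDIA3, its disulfide isomerase partner, 199, 174 and 223 FPKM, and the small differences of both between the P and E libraries turned under the scaling. TAPBPL, a peptide editor related to tapasin, had 15.8, 21.4 and 13.2 FPKM and thus the order of TAPBP.

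The aminopeptidases other than ERAP2 were not called in any comparison, and the most abundant, LNPEP, which trims peptides in endosomes, had 88.9, 63.0 and 108 FPKM. Of the MHC-like molecules, FCGRT, the heavy chain of the neonatal Fc receptor that pairs with B2M, had 41.4, 54.7 and 17.7 FPKM. AZGP1, a secreted class I-like protein, had 47.3, 8.73 and 71.5 FPKM, a ratio of 8.19 between the L and P libraries. FCGRT thus had the order of the 9 genes and AZGP1 the order of B2M, over a wider range.

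Of the 10 genes, 5 lie on one scaffold, in a stretch of the MHC. TAP2, PSMB8, TAP1 and PSMB9 follow each other on scaffold NW_005100916.1 from 4954214 to 4986916, with no other annotated gene between them, and TAPBP lies on the same scaffold from 5276147 to 5286214. TAP1 and PSMB9 are 814 nt apart. The ratio between the P and E libraries was 1.47 for TAP1 and 3.38 for PSMB9. From TAP2 to TAPBP the stretch holds 18 genes with a symbol, 13 of them outside the 10 genes. Between the L and P libraries 3 of the 13 were called lower and 1 higher. Each of the 13 reached 1 FPKM in both libraries, and 10.4% of protein-coding genes at this level were called lower. Without this minimum the share was 17.4%. The count of 3 of 13 was above both shares, but 13 genes are few. The 3 called lower were LOC102187998, LOC102188267 and LOC102188986, with log2 ratios of -2.26, -1.84 and -2.37. What these 3 encode was not looked up, so they may include antigen presentation genes. The gene called higher was SLC39A7, a zinc transporter, with a log2 ratio of 1.01. Nearest to 0 of the 13 were BRD2, RXRB and RGL2, with log2 ratios of 0.01, 0.00 and -0.01. The others that were not called ran from -0.49 for PFDN6 to 0.31 for RING1. Called differences thus stood beside smaller ones, some of them near 0, within one stretch. Other loci overlapped none of the 10 genes.

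**Figure D4:**
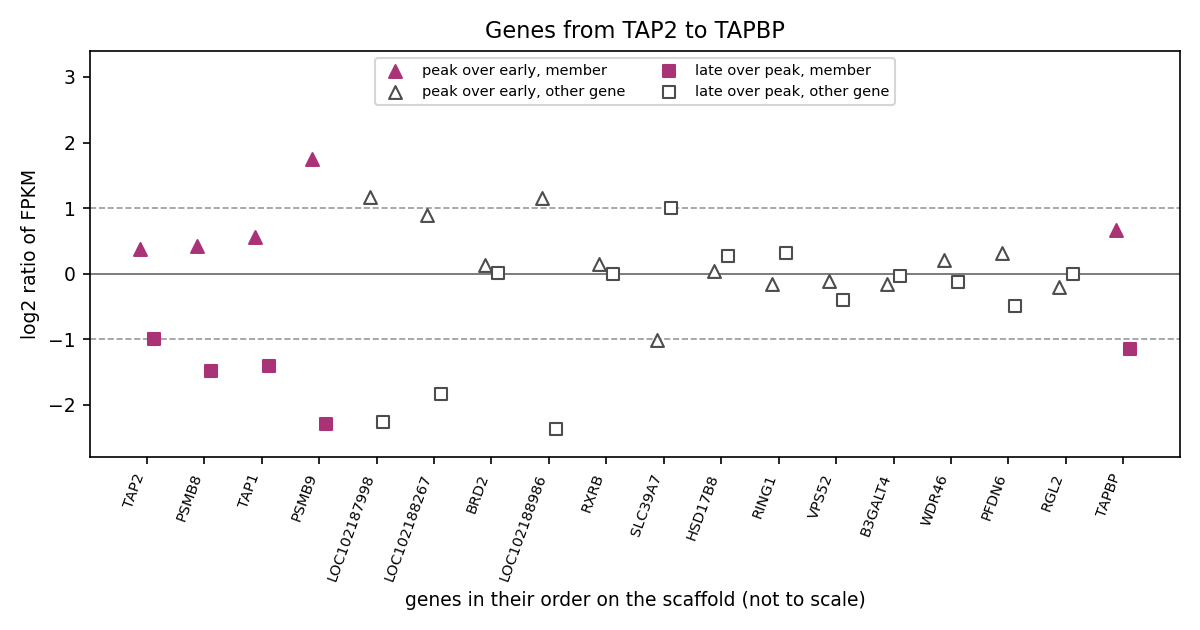
Log2 ratio of FPKM for the 18 genes from TAP2 to TAPBP, in their order on the scaffold and not to scale, for the P over the E library (triangles) and the L over the P library (squares), with the 5 members filled and dashed lines at 2-fold. The 4 adjacent members and 3 LOC genes lie apart from 0 in opposite directions in the 2 comparisons, while BRD2 and RXRB lie near 0 in both.

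Leukocyte markers had the same order of libraries as the 9 genes. The summed FPKM of PTPRC, CORO1A, LCP1 and LAPTM5 was 86.8, 169 and 44.2 in the E, P and L libraries, and all 4 were called lower in the L library than in the P library. The 4 B cell markers summed to 3.07, 17.6 and 1.52 FPKM, and all 4 were called in the same direction, as were 4 of the T and NK cell markers and all dendritic cell markers. The 5 T and NK cell markers summed to 19.7, 45.1 and 7.87 FPKM, with CD3E listed at 0 in the E and P libraries. The 5 macrophage and monocyte markers found summed to 76.8, 105 and 44.7 FPKM, and 3 of them were called lower in the L library. The 4 dendritic cell markers summed to 4.62, 7.42 and 1.24 FPKM, with FLT3 listed at 0 in the L library. The 5 luminal epithelial markers summed to 698, 740 and 650 FPKM and the 4 endothelial markers to 95.4, 88.7 and 99.4 FPKM, and none of them was called in any comparison. The 4 basal markers summed to 180, 185 and 164 FPKM, the 3 fibroblast markers to 223, 329 and 176 FPKM, and the 2 adipocyte markers found to 16.4, 4.93 and 6.16 FPKM. Of the fibroblast markers, PDGFRA and DCN were called lower in the L than in the P library, with log2 ratios of -1.31 and -1.27, and PDGFRA was called higher in the P than in the E library, with 1.03. Of the basal markers, OXTR was called higher in the L than in the P library and lower in the P than in the E library. Both adipocyte markers were called lower in the L than in the E library, and ADIPOQ also lower in the P than in the E library. The 5 secretory markers summed to 125054, 32970 and 72771 FPKM, and 4 of them were called higher in the L than in the P library, while LALBA was listed at 0 there. The part of these cell types in the results for the 10 genes was not tested.

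Set against the leukocyte markers of its own library, CD74 was nearly level. The quotient of its FPKM to the summed FPKM of the 4 leukocyte markers was 1.04, 1.05 and 0.902 in the E, P and L libraries. For CIITA it was 0.0362, 0.0365 and 0.0296, and for NLRC5 0.0691, 0.0632 and 0.0681. The highest quotient exceeded the lowest 1.17-fold for CD74, 1.23-fold for CIITA and 1.09-fold for NLRC5. For TAP1, TAP2, TAPBP, PSMB8 and ERAP2 it was lowest in the P library, and the highest exceeded the lowest between 1.44-fold and 1.92-fold. The quotient of PSMB9 was highest in the P library, 0.304 against 0.176 in the E library and 0.237 in the L library. B2M spread most, with 1.63, 0.609 and 3.35. These quotients hold for this denominator, and no sum of another cell type was used as one. From the L to the P library the leukocyte sum differed 3.84-fold and that of macrophages and monocytes 2.35-fold. The sums of B cells, T and NK cells and dendritic cells differed 11.5-fold, 5.72-fold and 5.99-fold.

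**Figure D5:**
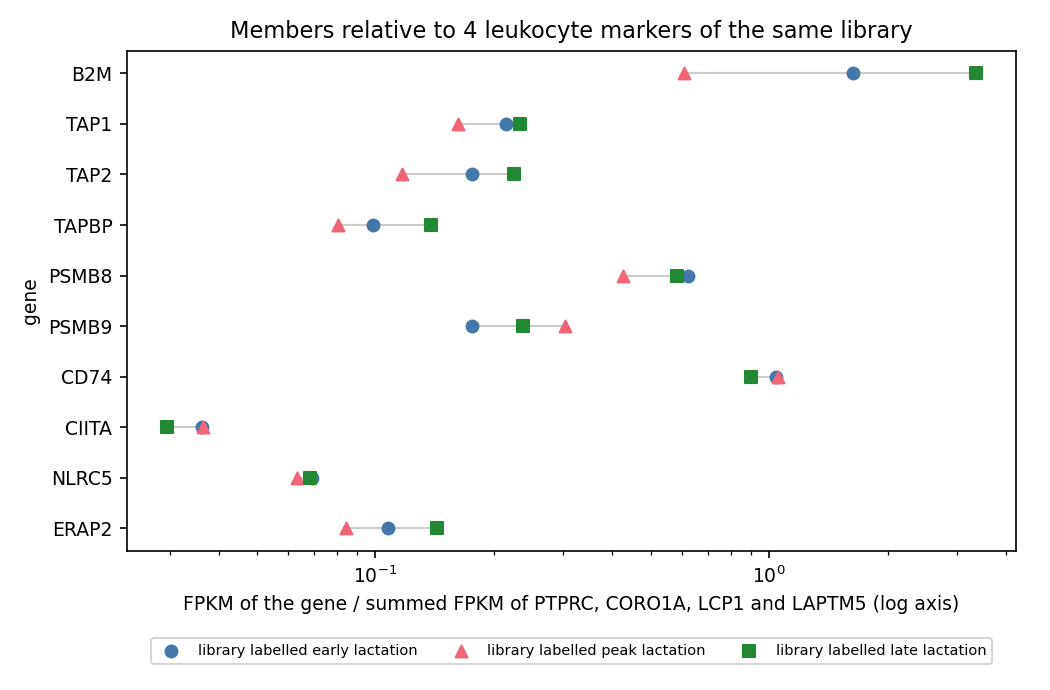
FPKM of each of the 10 genes divided by the summed FPKM of 4 leukocyte markers in the same library, on a log axis, 1 point per library and no error bars. The 3 points nearly coincide for CD74, CIITA and NLRC5, whereas for B2M they run from 0.609 in the P library to 3.35 in the L library.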

How the data were processed

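Total RNA of 5 goats per stage (RIN of at least 7.7) was pooled into 1 stranded library per stage. Reads were trimmed by the authors and aligned with TopHat2 2.0.9, transcripts were assembled with Cufflinks 2.1.1 and Cuffmerge, and the deposited FPKM came from Cuffdiff, 1 column per library. Coordinates are those of the deposited scaffolds. Reads were mapped to a goat genome named in the study's methods, its fit to these scaffolds was not checked, and no genome or sequence was used here. Symbols came from the RefSeq gene table (ARS1.2) by gene ID, which 14403 of 15274 loci with a single ID matched. Loci of one gene ID were summed.

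Ratios were taken from the FPKM, with 0 set to 0.001, and genes were called at a fold of at least 2. FPKM are not counts and each stage has 1 library, so no test was run. The background was the protein-coding genes above 0 in either library, or with at least 1 FPKM in both. The 10 genes, the wider list (48 symbols, of which MARCHF1 and MARCH1 name one gene, with 43 genes found and CANX, IFNG, MR1 and CD1D not analysed here) and the marker lists (47 genes, 45 found) were chosen with earlier results of these data known. From the wider list, called genes that reached 1 FPKM in both libraries and the most abundant gene of each role are named, and further names were chosen after their values were seen, as were the quotients. The rule for MHC chains by symbol found 0 genes, and it cannot find chains that carry a LOC name. One gene of the wider list is counted but not reported here by name. The calling code was checked on simulated data, which says nothing about the reliability of the calls. Python 3.11.15, numpy 2.4.6, pandas 2.3.3 and matplotlib 3.10.9 were used.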

Additional observations from a re-analysis of the deposited data

How the results depend on the processing

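No paired analysis was possible because only 1 pooled library was made of each stage, and for the same reason no library could be left out. The direction of all 30 log2 ratios of the 10 genes was kept with centring on the median. It was also kept with scaling to protein-coding genes without 7 milk protein genes. Pseudocounts of 0.1 and 1, a minimum of 1 FPKM and the highest locus of each gene ID kept it too. These last settings could not have turned it. A pseudocount added to both values cannot reverse a ratio, and each gene had 1 locus and at least 1 FPKM in each library. The largest shift of a log2 ratio was 0.60 with the pseudocount of 1, and 0.29 with the scaling, which moves all genes of a library alike. With pseudocounts of 0.1 and 1 the called genes between L and P fell from 9 to 8, as TAP2 came to -0.99 and -0.93, and with a pseudocount of 1 those between L and E fell from 3 to 2, as CIITA came to -0.84. In the wider list, the genes called lower between P and E fell from 2 to 1 with either pseudocount, with centring and with scaling. The gene lost was SOCS1. Those called higher between P and E rose from 2 to 4 with scaling. The scaling shifted every log2 ratio by 0.29 between P and E, -0.27 between L and P and 0.02 between L and E, and it turned the direction of 13, 4 and 0 of the 43 genes of the wider list, none of them called. At a fold of at least 1.5, 6 of the 10 genes differed between the P and E and 6 between the L and E libraries, and of the wider list 10, 10 and 21 differed between P and E, L and E, and L and P. At a fold of at least 3, 0 of the 10 genes differed between L and E and 4 between L and P, and of the wider list 1 between P and E and 2 between L and E. The shares of protein-coding genes at a fold of 1.5 or 3 are not given here, so these counts cannot be set against a background. Between P and E 3 of the 10 genes were called after centring and 4 after scaling without milk proteins, against 1 from the FPKM as deposited. The share of protein-coding genes called after centring or scaling is not given here.

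An exchange of the P and L columns reversed all 30 log2 ratios of the 10 genes, those between late and peak lactation by construction. Stages below are those after the exchange. It gave 3 called genes between peak and early and 1 between late and early lactation. Called between peak and early lactation were PSMB8 with a log2 ratio of -1.06, CD74 with -1.18 and CIITA with -1.26. Between late and early lactation it was PSMB9 with 1.76. In these comparisons the ratios called by label came under the threshold. They became -0.54 for PSMB9 between peak and early lactation, and 0.42 for PSMB8, 0.98 for CD74 and 0.98 for CIITA between late and early lactation. Between late and peak lactation they became 1.41 for TAP1, 1.0 for TAP2, 1.15 for TAPBP, 1.48 for PSMB8, 2.30 for PSMB9, 2.16 for CD74, 2.24 for CIITA, 1.83 for NLRC5 and 1.17 for ERAP2. The FPKM carry no read numbers and hence no precision, which matters most for CIITA and NLRC5, the genes of lowest abundance.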
